A study of Mus musculus with 10 samples.

Results

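The genes described here are 46 homeobox genes outside the Hox clusters that pattern the brain and spinal cord, chosen by name from the 21900 protein-coding genes of the gene table. The rule for choosing them uses no measured value, though earlier results of these data were known. The measured quantity is chromatin accessibility. ATAC-seq counts where a transposase could cut and tag open DNA. A gene's value is the summed count of all open regions whose nearest protein-coding gene span, within 50 kb, is that gene, given as CPM, counts scaled to library totals adjusted by TMM (a factor per library that centres the bulk of regions). In all 651 of 246799 regions were assigned to the 46 genes, and all 46 genes and 529 of their regions had enough counts to be tested, against 19041 genes and 173175 regions in the series. The members were read in 5 classes: 13 forebrain and eye genes, 6 genes of the midbrain, isthmus and hindbrain, 10 genes of spinal progenitor domains, 11 genes of spinal neuron subtypes, and the 6 Iroquois genes.

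The cells were wild-type ES-Bruce4 mouse embryonic stem cells (strain C57BL/6) driven toward neuromesodermal progenitors, the caudal cells that supply both the spinal cord and the paraxial mesoderm. All groups were grown with bFgf at 10 ng/ml from the start, and the Wnt pathway activator CHIR99021 was added at 5 uM on day 2. The protocol also splits the cells on day 3, so the day 6 and day 7 groups came after that split. The part of the split in changes after day 3 was not tested. Libraries of 50000 cells, 2 per group, were taken on day 2 and on day 3, then on day 6 and on day 7. The fifth group was also taken on day 7, but had received human Gdf11 at 50 ng/ml for the last 24 h, from day 6. Gdf11 is a ligand of the TGF-beta family that acts at the trunk-to-tail transition. All libraries come from 1 line. Since no label states that the 2 libraries of a group were grown as independent cultures, p-values measure only the spread between these libraries, which may be technical.

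Homeobox genes encode transcription factors that divide the neural tube into territories. Six3, Six6, Otx1, Emx and Dlx genes belong to the forebrain, En and Gbx genes to the midbrain-hindbrain boundary region, and Pax6, Dbx, Nkx and Gsx genes mark progenitor bands along the dorsoventral axis of the spinal cord, whose neurons later switch on LIM homeobox genes such as Isl1 and Lhx3. Iroquois genes are expressed in broad bands of the neural plate and in spinal progenitors. Neural tissue made from neuromesodermal progenitors is caudal, so forebrain genes are not part of its usual programme.

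Library totals ran from 7150334 to 12335735 counts. Of the marker genes, 6 of 6 epiblast and pluripotency markers were lower at day 7 than at day 2, with Pou5f1 at -1.90 on the log2 scale, and 5 of 8 neuromesodermal markers were higher at day 3 than at day 2, with Cdx1 at 1.84. No list of other cell types was at 0. Such a sum covers all assigned regions with a peak in any library, so a level above 0 does not show that those cells were present. Summed levels of the endoderm list went from 198 to 220 CPM at day 2 to 164 to 170 CPM at day 7, those of the neural crest list from 230 to 231 CPM to 161 to 172 CPM, and those of the feeder fibroblast list from 152 to 172 CPM to 192 to 218 CPM. Each library is a bulk sample, so fewer cells of a type and less accessibility per cell cannot be told apart in any value below.

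Between day 2 and day 7 more members fell than rose. Accessibility fell near 9 of 13 forebrain and eye genes and 7 of 11 genes of spinal neuron subtypes, while 5 of 10 spinal progenitor genes rose and 4 fell. Over all members 9 rose and 23 fell at an adjusted p under 0.05 by edgeR, and 14 did not pass, where the background over all genes tested was 29.4% higher and 22.9% lower. The median log2 change of the members was -0.33, beside 0.06 for all genes, and the class medians were -0.50 for the forebrain and eye, -0.04 for the midbrain, isthmus and hindbrain, 0.11 for spinal progenitors, -0.47 for spinal neuron subtypes and 0.14 for Iroquois genes. The difference between classes was not tested. The median of all genes moved to -0.07 with library size only in place of TMM scaling. The split of calls over all genes was 5604 higher and 4352 lower with TMM and 4159 higher and 5510 lower with library size only. The members gave 6 higher and 27 lower with library size only.

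**Figure D1:**
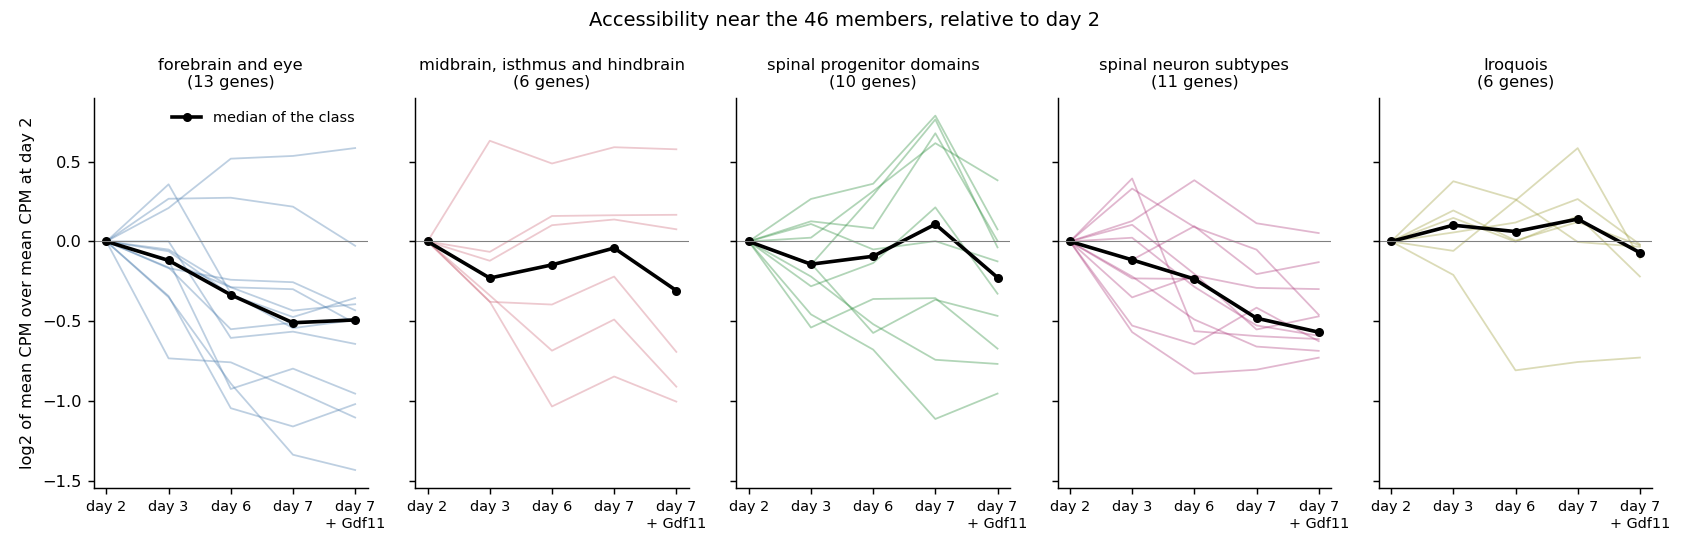
Accessibility near each of the 46 members (thin lines) by class, as log2 of the mean CPM of 2 libraries over the mean at day 2, with the class median in black. The last 2 positions are both day 7, without and with Gdf11; the forebrain median is close to the fitted -0.50 by day 7, and the upper spinal progenitor lines peak at day 7.

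Among forebrain genes the falls by day 7 with the smallest p were near Six3, Six6 and Emx1. Six3, which specifies the anterior forebrain and eye, held 42.0 and 57.4 CPM at day 2, 38.1 and 40.3 at day 3, 21.5 and 26.7 at day 6, 22.0 and 22.5 at day 7, and 20.9 and 28.1 with Gdf11. The day 2 and day 3 libraries lay above all later ones. The log2 change from day 2 to day 7 was -1.16 ± 0.16 (standard error of the fit, n = 2 libraries per group, adjusted p = 2.2e-07).

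Six6, a retinal and pituitary factor related to Six3, fell at an earlier step. It held 63.8 and 63.4 CPM at day 2, 35.7 and 40.8 at day 3, 37.3 and 37.9 at day 6, 37.2 and 29.6 at day 7, and 28.3 and 30.9 with Gdf11, so only the day 2 libraries stood apart. The change from day 2 to day 7 was -0.91 ± 0.13 (adjusted p = 4.1e-07). Emx1, a factor of the dorsal telencephalon, held 18.0 and 27.1 CPM at day 2, 16.7 and 18.6 at day 3, 11.03 and 13.3 at day 6, 8.55 and 9.28 at day 7, and 8.61 and 8.07 with Gdf11. Its change of -1.33 ± 0.21 was the largest fall of any member from day 2 to day 7.

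The other forebrain members that fell by day 7 were Dlx5 (-0.79), Dlx2 (-0.56), Otx1 (-0.54), Dlx6 (-0.50), Lhx6 (-0.47) and Lhx2 (-0.43). The Dlx genes and Lhx6 act in ventral forebrain interneurons, Otx1 in the forebrain and midbrain, and Lhx2 in the eye field and cortex. Emx2, Lhx8 and Dlx1 did not pass. Hesx1, an early anterior neural and pituitary factor, was the exception among forebrain genes, with 0.53 ± 0.20 (adjusted p = 0.028), but its value was -0.11 when only regions inside the gene span were summed.

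In the midbrain, isthmus and hindbrain class, En1 rose and Gbx2 and Barhl1 fell. En1, a factor of the midbrain-hindbrain boundary and of ventral spinal interneurons, held 62.2 and 63.3 CPM at day 2, 95.5 and 98.9 at day 3, 85.5 and 90.6 at day 6, 90.4 and 98.5 at day 7, and 88.0 and 99.2 with Gdf11. Both day 2 libraries lay below all others, and the change by day 7 was 0.59 ± 0.10 (adjusted p = 9.6e-06). Barhl1, a factor of cerebellar and dorsal spinal neurons, stood at -0.84 and Gbx2, which sets the anterior hindbrain, at -0.49. The Gbx2 sum turned to 0.34 when only regions inside its span were counted.

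Spinal progenitor genes moved both ways, 5 up and 4 down. Dbx2, a factor of the intermediate progenitor domains, held 50.0 and 48.8 CPM at day 2, 48.8 and 40.4 at day 3, 62.2 and 58.6 at day 6, 80.7 and 87.1 at day 7, and 46.2 and 50.1 with Gdf11. Its partner Dbx1, which defines the domain of V0 interneurons, held 33.6 and 34.1 CPM at day 2, 41.3 and 40.1 at day 3, 46.7 and 40.2 at day 6, 54.2 and 62.7 at day 7, and 33.0 and 38.3 with Gdf11. For both genes the untreated day 7 libraries were above all other libraries. The changes from day 2 to day 7 were 0.76 ± 0.12 for Dbx2 (adjusted p = 1.2e-06) and 0.78 ± 0.13 for Dbx1 (adjusted p = 5.6e-06).

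Nkx2-9, a gene of the ventral-most progenitors, was 0.67 higher and Msx3, a gene of the dorsal spinal cord, 0.61 higher at day 7 than at day 2. With regions inside its span only, Nkx2-9 stood at -0.95 and passed in that direction. Pax6, the broad progenitor factor of the ventral and intermediate cord, was 0.21 higher, a call lost with cyclic loess offsets (scaling by a smooth curve of abundance), where it was -0.14. Nkx2-2, the p3 domain factor, moved the other way: it held 91.7 and 95.3 CPM at day 2, 79.6 and 81.0 at day 3, 63.8 and 66.8 at day 6, 56.9 and 54.9 at day 7, and 57.4 and 52.4 with Gdf11. Its change was -0.74 ± 0.11 (adjusted p = 3.5e-07), and the 3 later groups did not reach the day 3 libraries. Nkx6-2, a ventral factor that overlaps Nkx6-1, fell by 1.11, Gsx2 by 0.38 and Gsx1 by 0.35, the last pair being dorsal progenitor factors. Nkx6-1 did not pass.

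No gene of the spinal neuron subtypes rose between day 2 and day 7 by edgeR, in DESeq2 or at an unadjusted p under 0.05. Lhx5 (-0.80), Evx2 (-0.63), Mnx1 (-0.59), Isl1 (-0.55), Isl2 (-0.53), Barhl2 (-0.47) and Lhx3 (-0.40) fell. Mnx1, Isl1, Isl2 and Lhx3 are motor neuron factors, and Lhx5, Evx2 and Barhl2 belong to interneurons. Lhx1, Lhx4, Lhx9 and Gbx1 did not pass. Among Iroquois genes Irx3 rose by 0.59 ± 0.10 (adjusted p = 1.0e-05) and Irx5 by 0.27, with Irx5 at -0.07 after cyclic loess offsets, while Irx4 fell by 0.75. Irx4 is known as a cardiac ventricle gene, and its sum turned to 0.44 with a window of 200 kb.

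Per kb of assigned region, so that genes can be set side by side, day 7 levels were highest near Irx5 (43.9 CPM per kb), Irx3 (31.3) and Pax6 (30.7). They were lowest near Emx1 (5.89), Six3 (6.98) and Irx4 (7.60). Of all members, 22 had their highest mean at day 2 and 10 at day 3, and 23 had their lowest mean in the Gdf11 group. The highest mean fell at day 2 for 9 of 13 forebrain genes and at day 7 for 5 of 10 spinal progenitor genes. These ranks use means without a test, and no share over all genes stands beside them. Some were near ties, such as Mnx1 with 34.2 CPM with Gdf11 and 34.7 at day 7. Against untreated day 7, 9 of 46 members passed as lower with Gdf11, where the median of all genes was -0.10.

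**Figure D2:**
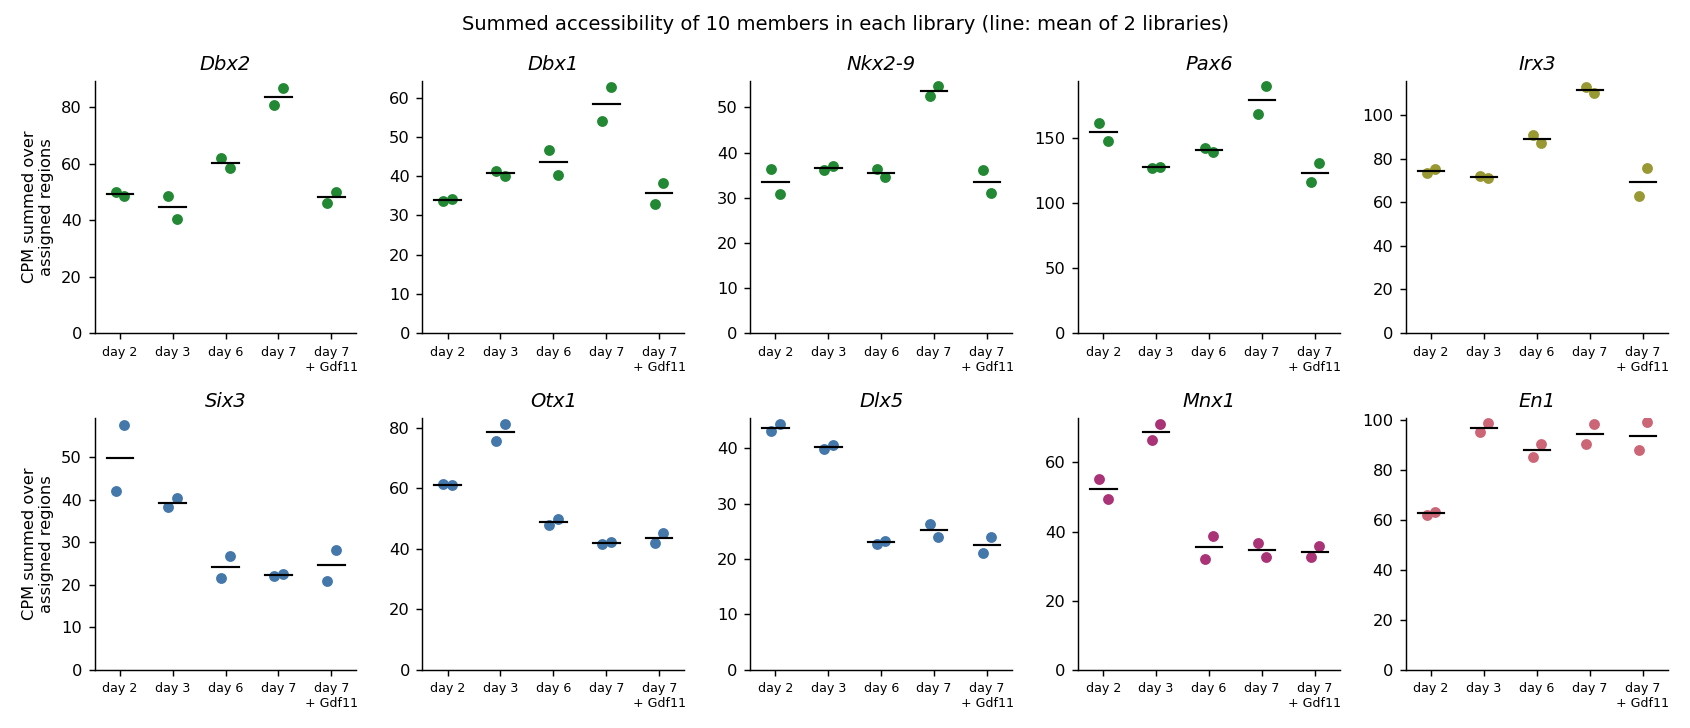
Summed CPM of 10 members in each of the 10 libraries (points), with the mean of 2 libraries as a line, from day 2 to day 7 with Gdf11 at the right. Dbx2, Dbx1, Nkx2-9, Pax6 and Irx3 are highest in the 2 untreated day 7 libraries with TMM scaling (Pax6 at day 7 against day 2 is -0.14 with cyclic loess offsets), and Six3, Otx1, Dlx5 and Mnx1 drop between day 3 and day 6.

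Between day 2 and day 3, the first day after CHIR99021, 11 members changed. No day 3 group went without CHIR99021, so its part and that of the added day cannot be told apart. En1 (0.63), Mnx1 (0.39) and Otx1 (0.36) rose, 3 of 46 beside a background of 12.3%. Six6 (-0.74), Lhx5 (-0.58), Gsx1 (-0.54), Lhx3 (-0.53), Nkx6-2 (-0.47), Lmx1b (-0.38), Gbx2 (-0.34) and Pax6 (-0.28) fell, 8 of 46 beside a background of 10.4%, though Gbx2 turned to 0.28 with regions inside its span only. The members' median change was -0.12, beside 0.00 for all genes (2339 higher and 1980 lower, or 1378 and 1773 in DESeq2). Without the second day 2 library or the second day 3 library 1 member passed as higher; without the second day 2 library 5 passed as lower, and without the first day 3 library 4.

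En1 and Six6, whose library values are given above, changed by 0.63 ± 0.10 (adjusted p = 1.9e-05) and -0.74 ± 0.13 (adjusted p = 7.3e-05) in this step. Gsx1 held 87.8 and 97.9 CPM at day 2 and 65.6 and 62.2 at day 3. Lmx1b, a factor of midbrain and dorsal spinal neurons, held 139 and 160 CPM at day 2 and 113 and 117 at day 3. Lhx5 held 58.9 and 68.1 CPM at day 2 and 38.1 and 47.5 at day 3. In none of these genes did the day 2 and day 3 libraries overlap. Of the brain and spinal genes outside the homeobox members, 2 of 10 in the forebrain list rose (Sp8, 0.59, and Nr2f1, 0.33) and none fell. Of the midbrain and hindbrain list 1 of 10 rose (Pax8, 0.51) and 2 fell (Pax5, -0.27, among them), and of the spinal list 2 of 14 rose (Pax3, 0.62, and Neurog2, 0.37) and 2 fell (Foxn4, -1.13, and Olig3, -0.36).

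Between day 3 and day 6 the falls near forebrain genes followed. Otx1 (-0.68), Dlx5 (-0.81), Dlx2 (-0.60), Six3 (-0.71) and Dlx6 (-0.38) fell, with Mnx1 (-0.97), Irx4 (-0.60), Barhl1 (-0.65), Gsx2 (-0.42), Isl1 (-0.30) and Nkx2-2 (-0.30). These 11 of 46 stand beside a background of 10.7%. Dbx2 (0.43) and Irx3 (0.32) rose, 2 of 46 beside a background of 9.46%. The members' median was -0.15, beside -0.02 for all genes.

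Mnx1, which specifies motor neurons and is also active in the notochord and pancreas, rose and fell within 4 days: it held 55.3 and 49.3 CPM at day 2, 66.5 and 71.0 at day 3, 32.1 and 38.7 at day 6, 36.6 and 32.7 at day 7, and 32.6 and 35.8 with Gdf11. Otx1 also peaked at day 3, with 61.4 and 61.2 CPM at day 2, 75.7 and 81.4 at day 3, 47.8 and 49.9 at day 6, 41.7 and 42.4 at day 7, and 42.0 and 45.1 with Gdf11. Both genes were highest in the 2 day 3 libraries and below day 2 from day 6 on. The fall from day 3 to day 6 was -0.97 ± 0.13 for Mnx1 (adjusted p = 6.0e-07) and -0.68 ± 0.11 for Otx1 (adjusted p = 2.5e-05).

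Dlx5 held 39.9 and 40.6 CPM at day 3 and 22.8 and 23.3 at day 6, and Dlx2 held 47.9 and 56.3 CPM at day 3 and 32.5 and 36.0 at day 6. The libraries of the 2 days did not overlap in either gene. The Dbx2 call was lost without the second day 3 library or the first day 6 library, and the Irx3 call without any of the 4 libraries in turn; the count of falling members was 5 without the first day 6 library, 7 without the second and 7 without the second day 3 library. In the lists outside the members, 4 of 10 forebrain genes fell (Fezf1, a forebrain zinc finger factor, -0.65, among them) and none rose, 3 of 10 midbrain and hindbrain genes rose (Wnt1, 1.13, and Pax8, 0.79, among them) and 3 fell, and 7 of 14 spinal genes rose (Neurog2, a proneural factor, 0.72, and Pax7, of the dorsal cord, 0.47, among them) and 1 fell.

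Over the last untreated day, day 7 against day 6, 3 spinal progenitor genes rose and no member fell by edgeR. Nkx2-9 (0.59 ± 0.13, adjusted p = 0.0049), Dbx2 (0.47 ± 0.11, adjusted p = 0.012) and Pax6 (0.35 ± 0.09, adjusted p = 0.017) rose, beside a background of 3.58% higher and 0.677% lower, though Nkx2-9 turned to -0.17 with regions inside its span only. At an unadjusted p under 0.05, 6 members were higher and 6 lower, Nkx6-2 (-0.44), Isl1 (-0.34), Lhx9 (-0.31), Lhx4 (-0.28), Isl2 (-0.25) and Nkx2-2 (-0.22). Nkx2-9 held 36.3 and 30.7 CPM at day 2, 36.2 and 36.9 at day 3, 36.4 and 34.5 at day 6, 52.5 and 54.6 at day 7, and 36.0 and 31.1 with Gdf11. Pax6 held 162 and 148 CPM at day 2, 127 and 128 at day 3, 143 and 140 at day 6, 169 and 191 at day 7, and 116 and 131 with Gdf11, a dip after day 2 followed by a peak at day 7. In each of the 3 genes both untreated day 7 libraries lay above every other library.

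These calls depended on the setting, more than the direction did. Over the 13 settings run, Dbx2 stood at 0.36 to 0.60, Pax6 at 0.22 to 0.45 and Nkx2-9 at -0.17 to 0.68. No member passed without the second day 6 library or without the second day 7 library. DESeq2 called 5 members higher and none lower, adding Dbx1 and Irx3, while both library size alone and cyclic loess gave Dbx2 and Nkx2-9 as higher and Isl1 and Lhx4 as lower. Over all genes the split was 681 higher and 129 lower, or 327 and 305 with library size only, 370 and 256 with loess offsets, and 818 and 42 in DESeq2. Of the spinal genes outside the members 7 of 14 rose, with Pax3 at 0.65 and Pax7 at 0.73, and none fell. In the forebrain list Wnt8b rose (0.66) and Tbr1 fell (-0.51), and in the midbrain and hindbrain list Wnt1 rose (0.55).

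Gdf11 lowered accessibility near 9 members relative to untreated day 7 and raised it near none. The members were Dbx2 (-0.80 ± 0.12, adjusted p = 7.4e-06), Irx3 (-0.70 ± 0.10, adjusted p = 9.1e-06), Pax6 (-0.54 ± 0.09, adjusted p = 5.7e-05), Dbx1 (-0.71 ± 0.13, adjusted p = 0.00021), Nkx2-9 (-0.67), Lmx1b (-0.48), Gbx2 (-0.42), Gsx1 (-0.32) and Irx5 (-0.28). Their 9 of 46 stand beside a background of 11.2% lower, and 0 of 46 beside 2.05% higher. By class they were 5 of 10 spinal progenitor genes, 2 of 6 midbrain, isthmus and hindbrain genes, 2 of 6 Iroquois genes, and none of the 13 forebrain and eye genes or the 11 genes of spinal neuron subtypes. At an unadjusted p under 0.05, 12 members were lower and 0 higher, and DESeq2 called 8 lower and 0 higher. The difference between classes was not tested.

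Irx3, expressed across much of the ventral and intermediate neural tube, held 73.4 and 75.3 CPM at day 2, 71.9 and 70.9 at day 3, 90.7 and 87.0 at day 6, 113 and 110.0 at day 7, and 62.6 and 75.5 with Gdf11. In Irx3, Dbx1, Dbx2, Nkx2-9 and Pax6 both Gdf11 libraries were below both untreated day 7 libraries, and for all but Nkx2-9 also below both day 6 libraries. Lmx1b held 136 and 121 CPM at day 7 and 91.1 and 93.8 with Gdf11.

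The median log2 change of all genes was -0.10 with TMM scaling and 0.06 with library size only, and the split over all genes was 391 higher and 2140 lower with TMM, 985 and 592 with library size only, and 847 and 760 with loess offsets. Relative to the median of all genes, Dbx2 stood at -0.70, Dbx1 at -0.61, Irx3 at -0.60, Nkx2-9 at -0.57 and Pax6 at -0.44. Under library size only and under loess offsets the same 6 members were lower, Dbx1, Dbx2, Irx3, Lmx1b, Nkx2-9 and Pax6, and none was higher; the Gbx2, Gsx1 and Irx5 calls were lost. Gsx1 also turned to 0.24 when only regions inside its span were summed, and Nkx2-9 was then -0.02.

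Against day 6, the day on which Gdf11 was given, these libraries differed at 2 members, Lhx1 (-0.55 ± 0.15, adjusted p = 0.039) and Irx3 (-0.37 ± 0.10, adjusted p = 0.048). The background was 1.27% lower and 0.614% higher, and no member was higher (0 also at an unadjusted p under 0.05 and in DESeq2). At an unadjusted p under 0.05 by edgeR, 16 of 46 members were lower, 5 of 10 spinal progenitor genes among them. The members' median was -0.18 beside -0.05 for all genes. Calls over all genes split 117 higher and 242 lower, or 257 and 188 with library size only and 300 and 252 with loess offsets. Lhx1, a LIM factor of interneurons and of the early midline, held 34.9 and 33.8 CPM at day 6, 28.7 and 33.6 at day 7, and 24.98 and 22.0 with Gdf11. Neither call passed with library size only or in DESeq2, and without single libraries the count was 0 or 1. The spinal progenitor genes that were lower than at day 7 did not pass against day 6, with Dbx2 at -0.33 ± 0.12, Dbx1 at -0.30 ± 0.13, Pax6 at -0.19 ± 0.09 and Nkx2-9 at -0.08 ± 0.13. Both comparisons use the Gdf11 libraries, and the one with day 7 shares its day 7 libraries with the comparison of day 7 and day 6.

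**Figure D3:**
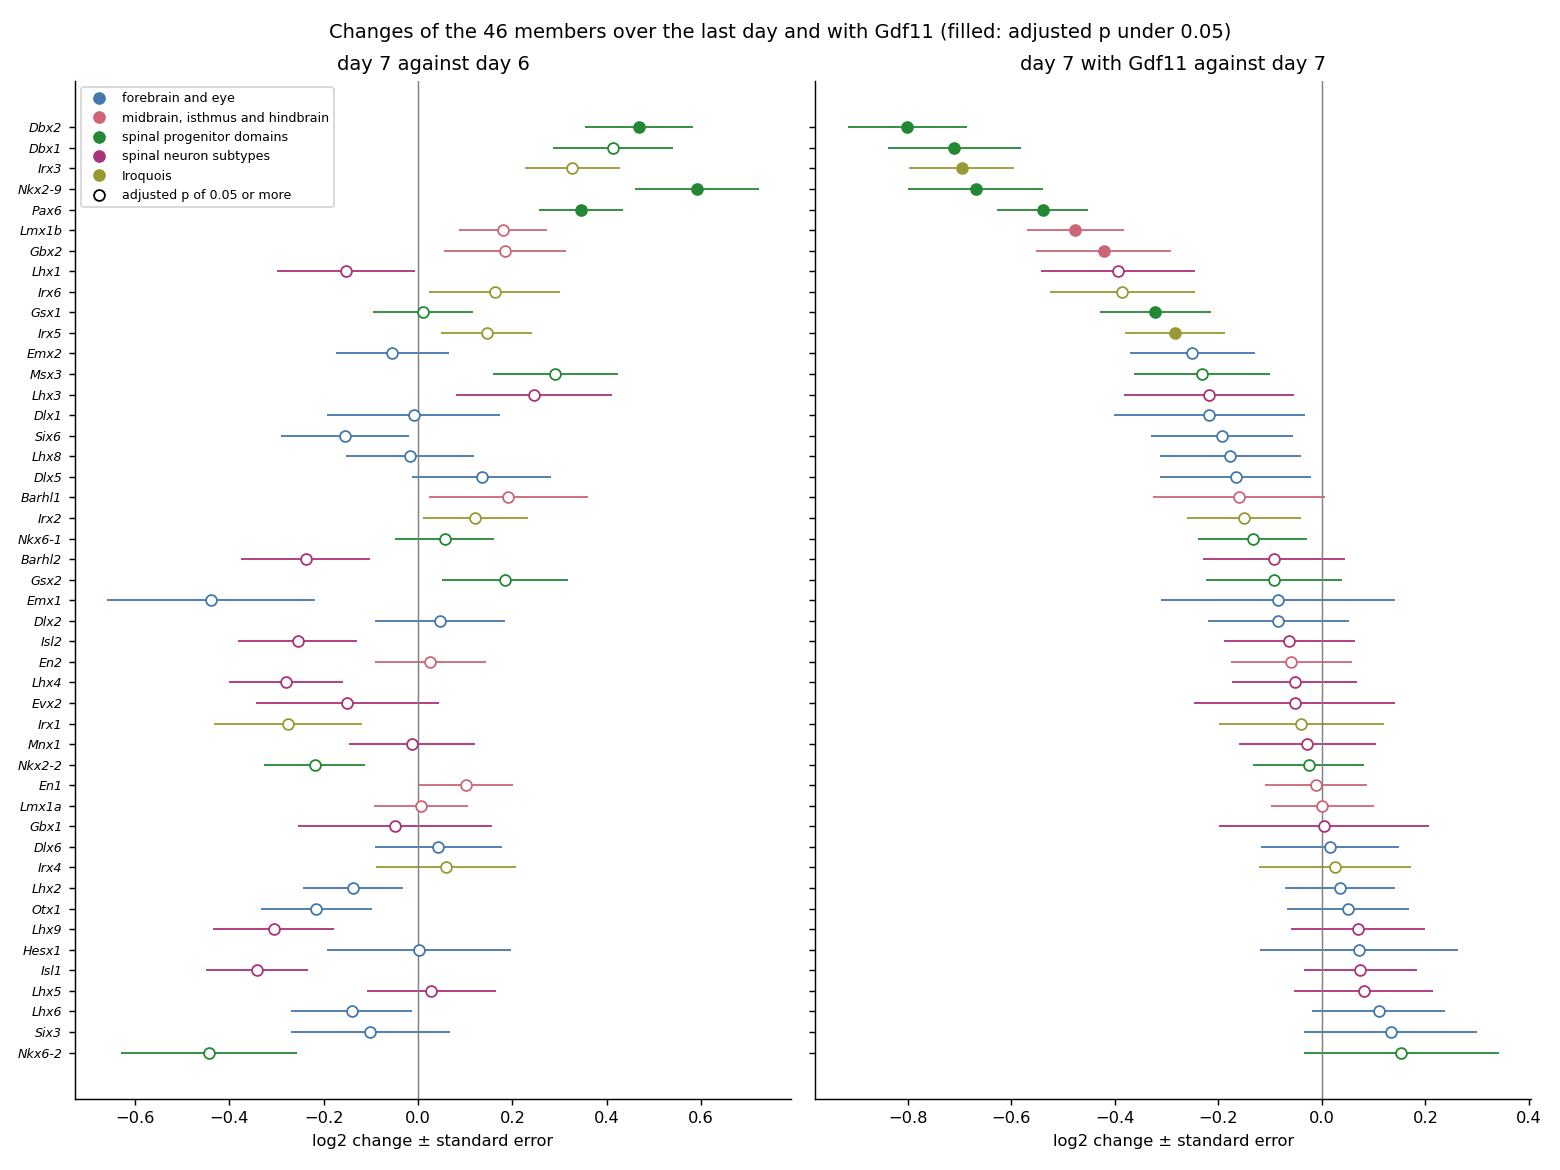
Log2 change with its standard error for each of the 46 members, day 7 against day 6 at the left and Gdf11 against day 7 at the right, ordered by the right panel and coloured by class. Filled points passed an adjusted p under 0.05: 3 on the left, all higher, and 9 on the right, all lower; the panels share the untreated day 7 libraries.

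Some genes of each list outside the homeobox members were also lower, beside 11.2% of all genes. With Gdf11 8 of 14 other spinal genes were lower than at day 7, with Neurog2 at -0.97 and Pax7 at -0.85, and none was higher. Of the forebrain list 4 of 10 were lower (Wnt8b, -0.998, and Sp8, -0.39, among them), while none of the 13 forebrain and eye members was. In the same list Tbr1 was higher with library size only and with loess offsets. Of the midbrain and hindbrain list 3 of 10 were lower (Wnt1, -0.57, and Pax8, -0.51, among them).

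Marker lists of several cell types also moved in this comparison. The summed level of 5 early neural progenitor markers was 777 to 822 CPM at day 7 and 468 to 530 CPM with Gdf11, with 4 of 5 lower, 2 of which are shared with the spinal list. The 8 neuromesodermal markers summed to 467 to 542 CPM and 348 to 357 CPM, with 5 of 8 lower, and the 6 mesoderm markers to 221 to 244 CPM and 159 CPM in both libraries, with 2 of 6 lower. Other lists moved less in sum: endoderm markers stood at 164 to 170 CPM and 179 CPM with 0 of 5 called, neural crest markers at 161 to 172 CPM and 151 to 154 CPM with 0 of 4 called, feeder fibroblast markers at 192 to 218 CPM and 193 to 212 CPM with 1 of 5 higher and 1 lower, and pluripotency markers at 190 to 191 CPM and 210 to 216 CPM with 1 of 6 higher, Pou5f1 (0.54). The part of cell composition in the members' change was not tested.

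In several of these members a single region took a large share of the change. Of the 529 regions tested near members, 14 were lower with Gdf11 than at day 7, beside a background of 2.65%, and 1 was higher, beside 1.09%. Member regions were thus called lower about as often as all regions. Spinal progenitor genes held 7 of the 14, and 127 of the 529 regions tested. The difference between classes was not tested. The split over all regions was 1883 higher and 4581 lower, or 2626 and 2649 with library size only, which moved the median of all regions from 0.03 to 0.19 and left 9 member regions lower. Without the second day 7 library or the first Gdf11 library 9 were lower. In 6 of the 9 lower members the region with the smallest p took 41.6% (Irx3) to 85.3% (Nkx2-9) of the fall in the gene's summed CPM and passed the threshold itself with a log2 change below -1. These were Dbx2, Irx3, Pax6, Dbx1, Nkx2-9 and Lmx1b, grouped after their values were seen. Genes and regions were both chosen in this same comparison, which favours a large share. No share for other genes stands beside these values. In the other 3 the region with the smallest p took 78.8% (Gsx1, log2 change -0.68, adjusted p = 0.012), 62.9% (Gbx2, adjusted p = 0.11) and 2.87% (Irx5, adjusted p = 0.099). Without that region the Dbx2 sum was 48.1 CPM at day 7 and 33.0 with Gdf11, and the Nkx2-9 sum 22.6 and 19.6.

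The lower region with the smallest p lies inside Lmx1b (chr2:33592751-33593369, mm10). It held 8.99 and 10.5 CPM at day 2, 3.82 and 4.04 at day 3, 17.0 and 13.5 at day 6, 26.2 and 26.1 at day 7, and 9.12 and 7.53 with Gdf11. The change with Gdf11 was -1.64 ± 0.22 (adjusted p = 5.6e-07), and the Gdf11 libraries returned below both day 6 libraries. Before that it had fallen from day 2 to day 3 (-1.31) and risen from day 3 to day 6 (1.97) and from day 6 to day 7 (0.76).

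A region 13078 bp outside Lhx1 (chr11:84538612-84539188) was lowest at day 2 and with Gdf11 and higher in all libraries in between. It held 0.209 and 1.05 CPM at day 2, 12.3 and 14.4 at day 3, 8.95 and 9.99 at day 6, 6.30 and 10.9 at day 7, and 1.69 and 0.969 with Gdf11. The authors' peak lists hold a peak there in 6 libraries, those of day 3, day 6 and untreated day 7. The change with Gdf11 against day 7 was -2.61 ± 0.37 (adjusted p = 1.8e-06), and the rise from day 2 to day 3 was 4.47 ± 0.43 (adjusted p = 3.1e-12).

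A region inside Dbx1 (chr7:49634310-49634740) held 2.51 and 4.84 CPM at day 2, 6.12 and 4.19 at day 3, 13.98 and 9.99 at day 6, 17.3 and 26.2 at day 7, and 5.57 and 6.35 with Gdf11. It fell by 1.85 ± 0.26 on the log2 scale with Gdf11 (adjusted p = 2.0e-06). Against day 6, 12 of the 529 member regions, near 10 genes, were lower with Gdf11, beside a background of 1.34%, and none was higher, beside 1.06%. At an unadjusted p under 0.05, 49 were lower and 12 higher. DESeq2 called 4 lower and 0 higher, and the lower count was 2 without the first day 6 library, 6 without the first Gdf11 library and 7 without the second. Besides the Lhx1 region above, those with the smallest p lie near Irx3 and Gsx1. The one 17041 bp outside Irx3 (chr8:91818695-91819226) held 19.7 and 13.5 CPM at day 6, 23.4 and 25.8 at day 7, and 6.33 and 7.53 with Gdf11 (-1.29 ± 0.27 against day 6). The call against day 6 was lost in DESeq2 (adjusted p = 0.51) and without the first day 6 library (-0.97). The one 18226 bp outside Gsx1 (chr5:147169996-147170470) held 14.2 and 17.1 CPM at day 6, 10.1 and 7.51 at day 7, and 4.90 and 6.67 with Gdf11 (-1.44 ± 0.27 against day 6). The single region that was higher with Gdf11 lies 192 bp outside Lhx6 (chr2:36081557-36081758) and was thin, with 0.720 and 0.295 CPM at day 7 and 1.52 and 3.44 with Gdf11. Its adjusted p was 0.049, DESeq2 gave it none, and the call was lost with the replicate block, without either day 7 library and without the second Gdf11 library.

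**Figure D4:**
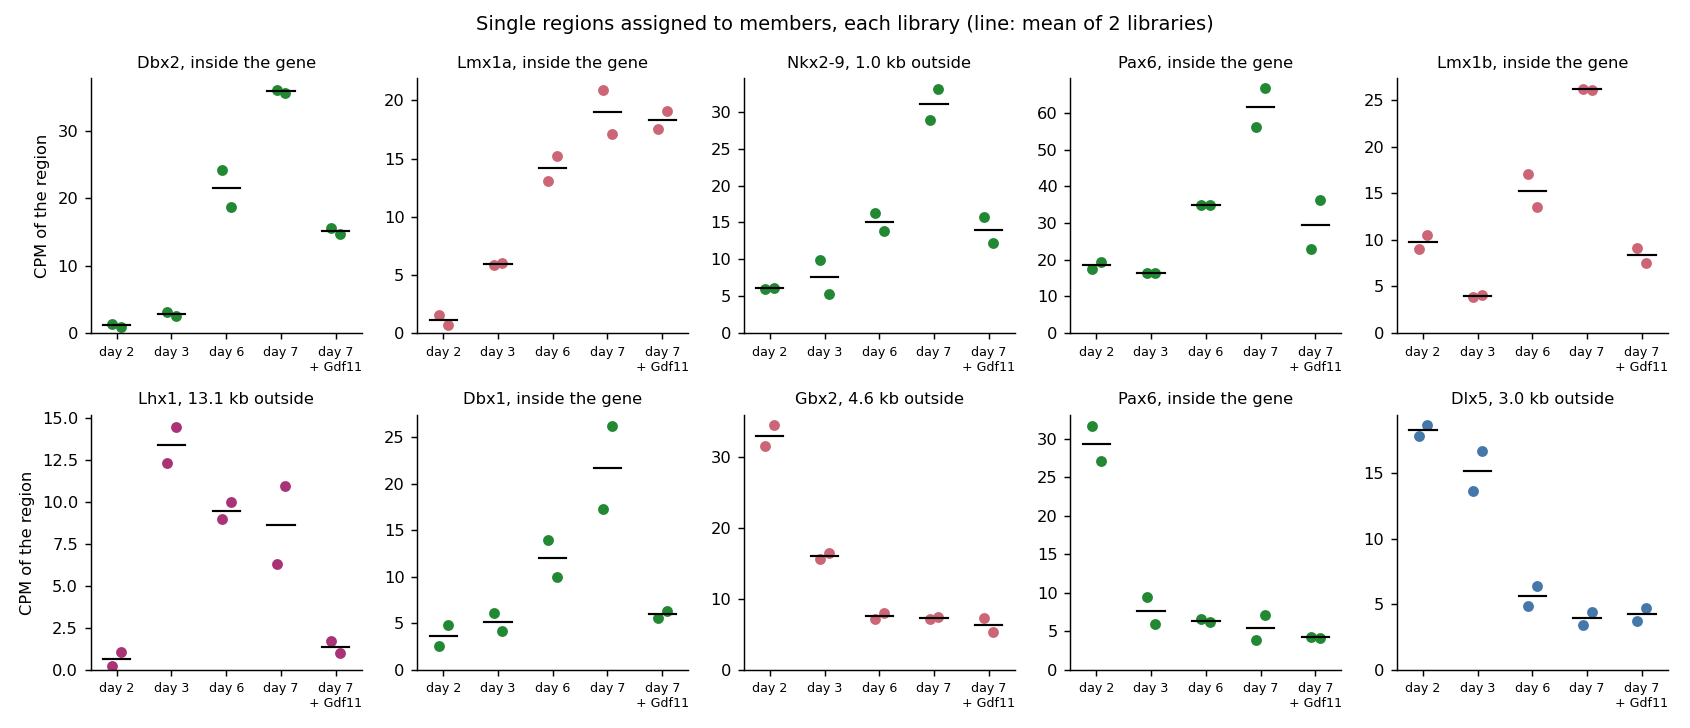
CPM of 10 single regions assigned to members in each library (points), with the mean of 2 libraries as a line. The Dbx2, Nkx2-9, Pax6, Lmx1b and Dbx1 regions are highest at untreated day 7 and lower with Gdf11, the Lmx1a region keeps 17.6 and 19.1 CPM with Gdf11, and the lower row ends with regions near Gbx2, Pax6 and Dlx5 that were lower after day 2 or day 3.

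Over the time course 72 of the 529 regions were higher at day 7 than at day 2, beside a background of 22%, and 123 were lower, beside 15.8%. The median log2 change of the members' regions was -0.39. The rise with the smallest p was inside Dbx2, 15118 bp from its start site (chr15:95639323-95639983). This region held 1.36 and 0.915 CPM at day 2, 3.14 and 2.45 at day 3, 24.1 and 18.7 at day 6, 36.0 and 35.6 at day 7, and 15.6 and 14.6 with Gdf11. It was 30.6-fold higher at day 7 than at day 2 (adjusted p = 1.5e-21), 7.52-fold higher at day 6 than at day 3 and 2.36-fold lower with Gdf11 than at day 7.

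A region inside Lmx1a, a roof plate and dopaminergic neuron factor (chr1:167761700-167762343), held 1.57 and 0.654 CPM at day 2, 5.86 and 6.06 at day 3, 13.1 and 15.2 at day 6, 20.9 and 17.1 at day 7, and 17.6 and 19.1 with Gdf11. It rose 16.4-fold from day 2 to day 7, and the Gdf11 and day 7 libraries overlapped. The summed value of Lmx1a did not pass in any of the 6 comparisons. A region 980 bp outside Nkx2-9 (chr12:56614549-56615024) went from 5.96 and 6.14 CPM at day 2 to 28.9 and 33.1 at day 7 and stood at 15.7 and 12.2 with Gdf11.

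The falls from day 2 to day 7 with the smallest p were near Gbx2, Pax6 and Dlx5. The region 4552 bp outside Gbx2 (chr1:89922703-89923410) held 31.6 and 34.5 CPM at day 2, 15.7 and 16.5 at day 3, and between 5.38 and 8.07 CPM in the 6 later libraries. A region inside Pax6 (chr2:105691228-105691702) held 31.7 and 27.1 CPM at day 2, 9.43 and 5.92 at day 3, and between 3.87 and 7.07 CPM later. The region 3042 bp outside Dlx5 (chr6:6874014-6874759) held 17.9 and 18.7 CPM at day 2 and 13.7 and 16.7 at day 3, and between 3.42 and 6.43 CPM later. The folds from day 2 to day 7 were 4.49, 5.58 and 4.74.

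Pax6 thus held regions that moved in opposite directions within 1 gene. The next region upstream of the one that fell (chr2:105689498-105690584) held 17.6 and 19.4 CPM at day 2, 16.4 and 16.3 at day 3, 34.9 and 35.02 at day 6, 56.1 and 66.9 at day 7, and 23.0 and 36.2 with Gdf11. In Dbx2 the region over the start site fell from 5.96 and 6.41 CPM at day 2 to 2.34 and 2.65 at day 7 (-1.31 ± 0.36), while the region 15118 bp from the start rose. Of the 46 members, 32 (69.6%) had regions called in both directions between day 2 and day 7, beside 29.6% of all genes with a tested region. Members had a median of 10.5 tested regions and all genes 4, so the 2 shares are not alike in the number of regions that could differ.

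**Figure D5:**
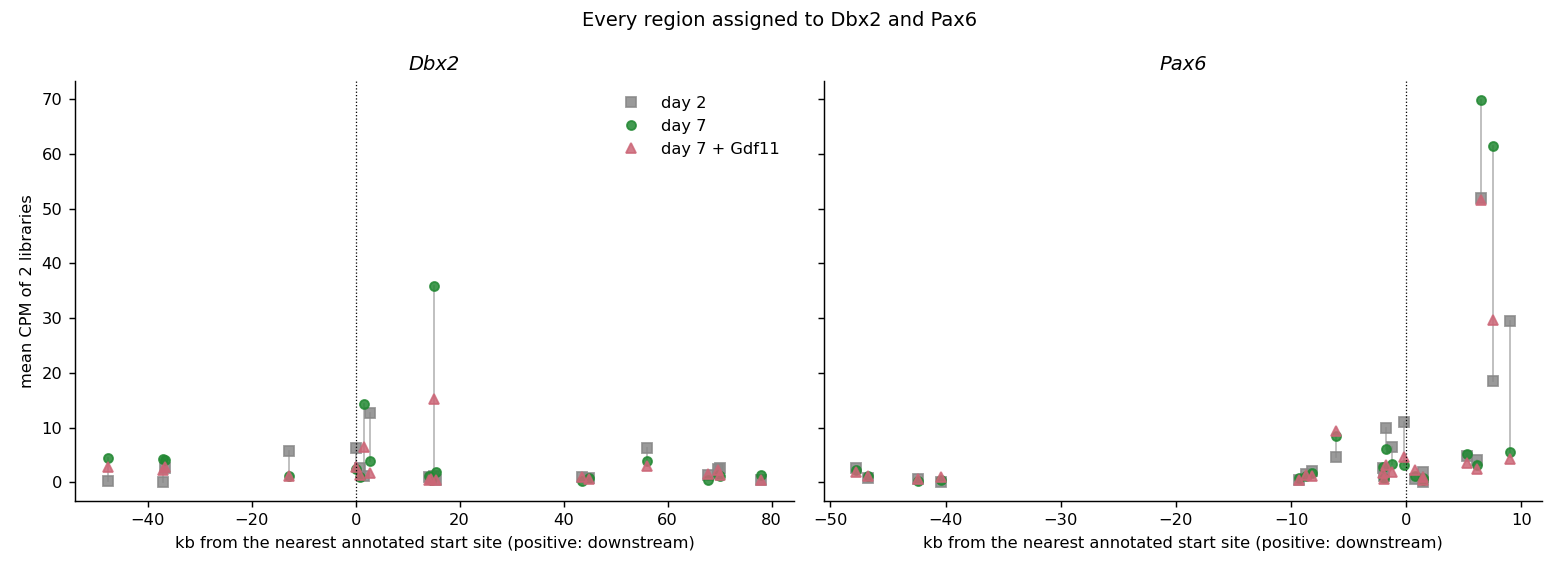
Mean CPM of every region assigned to Dbx2 (left) and Pax6 (right) at day 2, day 7 and day 7 with Gdf11, by distance in kb from the nearest annotated start site of the gene. Grey lines join day 2 and day 7; the Dbx2 region at 15118 bp and the Pax6 region at 7578 bp rise, and the Pax6 region at 9002 bp falls.

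In single steps, 20 of the members' regions were higher at day 3 than at day 2 and 21 lower, beside 8.82% and 4.35% of all regions. The En1 region 35921 bp outside the gene (chr1:120643912-120644933) led the rises after Lhx1, with 17.8 and 16.0 CPM at day 2, 44.4 in the first day 3 library and 44.3 in the second, and 21.6 to 26.5 CPM in the 6 later libraries, a peak at day 3. Without the second day 2 library the counts were 13 higher and 12 lower. From day 3 to day 6, 35 were higher and 43 lower, beside 9.19% and 6.05%. The higher count was 23 without the first day 3 library, 21 without the second and 21 without the first day 6 library, and the lower count 22 without the last. Forebrain and eye genes had 2 of the rises and 13 of the falls, among 125 tested regions. Spinal progenitor genes had 12 and 11, among 127 tested regions, so their rises were near the share of all regions. The difference between classes was not tested.

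Among the falls from day 3 to day 6, a region 3957 bp outside Dlx2 (chr2:71539051-71539451) went from 10.5 and 13.4 CPM to 2.64 and 2.19, and one 417 bp outside Isl1 (chr13:116297405-116297853) from 11.98 and 13.4 CPM to 4.39 and 2.74. Among the rises a region inside Lhx4, a motor neuron factor (chr1:155750523-155751050), went from 2.80 and 3.90 CPM to 12.4 and 13.3. From day 6 to day 7, 4 were higher and 1 lower, beside 0.974% and 0.207%; the higher ones are those of Nkx2-9 (1.03 ± 0.21), Pax6 (0.81 ± 0.17), Lmx1b (0.76 ± 0.21) and Dbx2 (0.73 ± 0.19), and the lower one lies 4044 bp outside Isl1 (chr13:116293718-116294226, -1.22 ± 0.32). Without the second day 7 library 0 were higher and without the second day 6 library 1, and the lower count was 0 without either day 6 library or the second day 7 library. Over all regions the split was 1686 higher and 358 lower, or 1084 and 459 with library size only, which moved the median of all regions from -0.02 to -0.12.

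The regions that opened between day 3 and day 6 can be read in the Gdf11 comparison, which uses no library of those days. Of the 35 member regions that rose, 10 (28.6%) were lower with Gdf11 than at day 7 and none was higher, with a median log2 change of -0.64. Over all regions that rose in the same step, 2701 of 15909 (17.0%) were lower and the median was -0.41. Of the 43 member regions that fell from day 3 to day 6 none passed with Gdf11, and their median was 0.14. Over all 10474 regions that fell, 105 were lower and 206 higher with Gdf11, and the median was 0.23.

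Regions at start sites were counted apart. RefSeq promoter windows, from 250 bases before to 50 after each start, were at hand for 37 of the 46 members. Of 52 tested member regions that overlap a promoter window of any gene, 6 (11.5%) were higher and 20 (38.5%) lower at day 7 than at day 2. Over the 13623 tested regions of all genes that overlap such a window the shares were 25.1% higher and 15.2% lower. Of the 477 other member regions 66 (13.8%) were higher and 103 (21.6%) lower, beside 20.4% and 15.5% of the 123427 such regions of all genes.

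In all, 9 promoter windows of members lie whole in a region that passed in a comparison. From these, 4 were taken by smallest p: Six6, Mnx1 and Lhx3 from day 7 against day 2, and Dbx1 from Gdf11 against day 6. The upstream parts of these 4 are printed, in order of p: a forebrain promoter, 2 motor neuron promoters, and that of Dbx1. Each is the 250 bases before the start (GRCm38.p6, RefSeq), 5′ to 3′ on the gene's strand, with CG dinucleotides in capitals.
Six6: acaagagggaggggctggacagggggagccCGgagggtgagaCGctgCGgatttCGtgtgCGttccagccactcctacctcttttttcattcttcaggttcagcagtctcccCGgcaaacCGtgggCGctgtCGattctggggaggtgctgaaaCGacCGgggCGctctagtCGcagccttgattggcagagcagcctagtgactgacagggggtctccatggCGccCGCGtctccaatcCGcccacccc
Mnx1: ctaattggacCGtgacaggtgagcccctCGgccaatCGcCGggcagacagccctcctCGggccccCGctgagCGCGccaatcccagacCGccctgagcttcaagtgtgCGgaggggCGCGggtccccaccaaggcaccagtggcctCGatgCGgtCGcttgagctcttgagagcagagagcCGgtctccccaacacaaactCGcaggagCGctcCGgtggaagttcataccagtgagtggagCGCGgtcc
Dbx1: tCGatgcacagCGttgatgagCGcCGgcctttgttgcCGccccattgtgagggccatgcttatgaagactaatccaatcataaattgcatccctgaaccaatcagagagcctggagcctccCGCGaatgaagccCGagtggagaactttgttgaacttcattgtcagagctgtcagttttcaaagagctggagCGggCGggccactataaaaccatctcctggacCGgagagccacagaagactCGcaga
Lhx3: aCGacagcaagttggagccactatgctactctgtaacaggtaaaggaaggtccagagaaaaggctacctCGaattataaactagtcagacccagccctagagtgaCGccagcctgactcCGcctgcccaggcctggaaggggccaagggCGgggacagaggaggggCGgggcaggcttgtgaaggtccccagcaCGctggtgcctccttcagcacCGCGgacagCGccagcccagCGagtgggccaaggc

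The Six6 sequence (chr12:72939632-72939881, plus strand) is 62.8% G and C with 17 CG dinucleotides. Its region held 28.5 and 26.1 CPM at day 2, 12.8 and 15.3 at day 3, and 7.51 to 10.7 CPM in the 6 later libraries, a fall of 1.54 ± 0.21 from day 2 to day 7. The Mnx1 sequence (chr5:29478471-29478720, minus strand) has 21 CG dinucleotides, and its region held 20.5 and 20.9 CPM at day 2, 21.2 and 22.8 at day 3, and 7.95 to 12.9 CPM later, with a change of -1.10 ± 0.22 by day 7. The summed value of Mnx1 rose from day 2 to day 3, while this promoter region was not among those called in that step.

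The Lhx3 sequence (chr2:26208250-26208499, minus strand) has 11 CG dinucleotides, and its region went from 11.4 and 13.2 CPM at day 2 to 7.83 and 2.95 at day 7. The Dbx1 sequence (chr7:49636836-49637085, minus strand) is the least rich in G and C of the 4, at 52.8% with 12 CG dinucleotides. Its region held 6.06 and 5.23 CPM at day 2, 4.42 and 4.19 at day 3, 10.9 and 5.20 at day 6, 6.84 and 7.81 at day 7, and 3.54 and 2.48 with Gdf11. It was lower with Gdf11 than at day 7 (-1.25 ± 0.33, adjusted p = 0.016) and than at day 6 (-1.44 ± 0.32, adjusted p = 0.0046), and the day 6 libraries lay far apart.

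Over the whole windows of 37 members the median G and C content was 63.0% and the median number of CG dinucleotides 20. The values were 52.7% and 7 for the 27025 genes with a window. That set is larger than the 21900 protein-coding genes of the gene table, so it is not limited to protein-coding genes as the members are. Letters of 4 motifs were searched on both strands. The homeodomain core TAATTA was in the windows of 2 of 37 members (5.41%), Barhl1 and Emx2, and in 5.31% of all windows. ATCAAAG, of Lef/Tcf factors, was in 1 of 37 (2.70%), Lhx4, and in 3.72% of all. TTTATGG, of Cdx factors, and GTCTAGAC, of Smad factors, were in no member window and in 2.76% and 0.211% of all. None of these 4 motifs occurs in the printed promoters.

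Factors made from the members also have motifs in the authors' deposited tables, which list 414 motifs per pair of groups, separately for regions going up and down. Which regions served as targets, and which of the 2 groups counts as the reference, is not stated. For the pair of day 2 and day 3, the authors' deposited table of regions going up has the Isl1 motif in 48.8% of targets and 38.7% of background sequences, and the table of regions going down in 39.3% and 34.8%. The PAX6 motif is rare in every table; its largest excess in the authors' deposited table is for the up regions of day 6 and day 7, with 5.57% of targets and 2.38% of background, rank 49 by enrichment score.

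For the pair of day 7 and Gdf11, the authors' deposited table of regions going down has the PAX6 motif in 4.1% of targets and 2.2% of background (rank 88), Nkx6.1 in 59.1% and 50.1% (rank 48), and Lhx3 in 44.5% and 35.1% (rank 44). In the authors' deposited table of regions going up in the same pair, PAX6 has 2.1% and 1.7% (rank 227). The Nkx2.2 motif is at or under its background in the target regions of each of the 8 authors' deposited lists read here. LIM homeodomain motifs such as Lhx1, Lhx2 and Lhx3 share a common core of letters, so their rows are not independent of each other.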

How the data were processed

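The deposited counts are raw whole-number counts per region and library. The counter is not given in the sources used here. The submitters' processing notes name build mm10 and the tools MACS2 2.1.1.20160309, HISAT2 2.1.0, HOMER 4.10, bedtools and SAMtools, without their roles. The deposited peak lists, 1 per library, give each peak a ratio, its fold enrichment. The deposited motif tables give an enrichment score and the percent of target and background sequences.

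The members and lists were chosen with earlier results of these data known. Count tables carry no coordinates: the 10 peak lists were merged in character order of chromosomes into 246799 regions, as many as were counted. A region went to the nearest protein-coding span within 50 kb, and inside several spans to the shortest. This does not show that it acts on that gene. Gene sums and regions were tested in edgeR 4.0.16 (R 4.3.3; quasi-likelihood F test, two-sided, filterByExpr, TMM factors of 0.905 to 1.084, 1 fit of 10 libraries by group) with Benjamini-Hochberg adjustment within each comparison over all genes or regions and a threshold of 0.05. The common dispersion of genes was 0.00705, with 32.7 prior degrees of freedom. Standard errors come from the F statistic. The test was checked on simulated counts.

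By rule, all members past the threshold were named, up to 4 per direction with every library, up to 2 genes per list, up to 3 regions per direction with 1 per gene, and up to 4 promoters by smallest p. Values of some list genes are not reported here. Alternatives were library size only, cyclic loess offsets (limma 3.58.1), DESeq2 1.42.0, no filter, a replicate block, windows of 10 kb and 200 kb, regions inside the span only, and each library left out. The gene table and promoters are RefSeq, GRCm38.p6, of which mm10 is the browser name. Gene positions in mm10 or GRCm38.p6 are 1-based.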

Additional observations from a re-analysis of the deposited data

How the results depend on the processing

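Counts of members past the threshold changed with the setting as follows. For genes, day 3 against day 2 gave 3 higher, but 1 in DESeq2, 1 with a window of 10 kb and 0 with regions inside the span only, and 8 lower, but 5 inside the span. Day 6 against day 3 gave 2 higher, but 4 with a window of 200 kb. Day 7 against day 6 gave 3 higher, but 5 in DESeq2, 5 without the filter, 5 with the replicate block and 8 at 200 kb, and 0 lower, but 2 with library size only, 2 with loess offsets and 1 with the replicate block. Gdf11 against day 7 gave 9 lower, but 14 at 200 kb and 5 inside the span. Gdf11 against day 6 gave 2 lower, but 0 with library size only, in DESeq2, at 10 kb and inside the span, and 6 with the replicate block. For regions, DESeq2 gave 12 higher and 11 lower for day 3 against day 2 (20 and 21), 20 and 25 for day 6 against day 3 (35 and 43), 0 lower for day 7 against day 6 (1) 0 higher for Gdf11 against day 7 (1, with no adjusted p in DESeq2) and 4 lower for Gdf11 against day 6 (12). Library size only gave 2 higher for day 7 against day 6 (4), and 2 higher and 9 lower for Gdf11 against day 7 (1 and 14).

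Leaving out 1 library at a time gave member genes of 1 to 3 higher and 4 to 10 lower (day 3 against day 2), 0 to 1 and 5 to 12 (day 6 against day 3), 0 to 3 and 0 to 0 (day 7 against day 6), 6 to 9 and 20 to 23 (day 7 against day 2), 0 to 0 and 6 to 9 (Gdf11 against day 7), and 0 to 0 and 0 to 1 (Gdf11 against day 6). Regions gave 13 to 19 and 12 to 18, 21 to 29 and 22 to 37, 0 to 3 and 0 to 2, 0 to 1 and 9 to 14, and 0 to 0 and 2 to 9 in these, day 7 against day 2 aside. The lone library of a group was then taken to vary like the others.

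Signs turned with regions inside the span only for Gbx2 (0.28, day 3 against day 2; 0.34, day 7 against day 2), Gsx2 (0.19, day 6 against day 3), Nkx2-9 (-0.17, day 7 against day 6; -0.95, day 7 against day 2), Hesx1 (-0.11, day 7 against day 2) and Gsx1 (0.24, Gdf11 against day 7; 0.20 with a window of 10 kb). They turned at 200 kb for Irx4 (0.0077, day 6 against day 3; 0.44, day 7 against day 2) and with loess offsets for Irx5 (-0.072) and Pax6 (-0.14), both day 7 against day 2. The cause was not tested. Calls that held in every setting run were Lmx1b and Six6 (day 3 against day 2), Dlx5, Mnx1 and Otx1 (day 6 against day 3), Dbx1, Dbx2, Irx3, Lmx1b and Pax6 (Gdf11 against day 7), and 15 of 32 for day 7 against day 2 (Barhl1, Barhl2, Dbx1, Dbx2, Dlx5, En1, Isl2, Lhx2, Lhx6, Mnx1, Nkx2-2, Nkx6-2, Otx1, Six3 and Six6). None of day 7 against day 6 or of Gdf11 against day 6 did. Libraries share only a replicate number, and no label says whether it marks a pairing or a batch. Same-numbered deviations correlated at 0.00852 to 0.164, which cannot show what the number means by design. For Gdf11 against day 7, lower calls over all genes were 2140 in the main fit and 3191 with the replicate block. With 2 libraries per group and regions of few CPM, small changes were not detectable at this depth.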
